A study of Mus musculus with 16 samples.

Results

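The genes described here are 33 extracellular matrix genes of the mouse gonads, taken from a table of 38087 genes by their symbols: collagens, laminins, proteoglycans, matrix glycoproteins, and the enzymes and inhibitors that remodel the matrix. All 33 symbols were found and all 33 passed the filter on low counts in every comparison. Total RNA was sequenced from whole ovaries of females and whole testes of males of the strain C57BL/6j, aged 15 to 16 weeks, fed ad libitum and collected at ZT 2 to 4, counted in hours from the start of the light phase. Conventionally raised (CV) animals, which carry a gut microbiota, gave 4 ovary and 4 testis libraries, and germ-free (GF) animals, raised without microbes, gave 5 ovary and 3 testis libraries. The title of the series speaks of female mice only, while the testis libraries are labelled male. Tissue and sex cannot be told apart, and neither batch, cage nor ovarian cycle stage is labelled. Whether each library is 1 animal is not stated, and p-values then speak only to the scatter among these libraries, part of which may be technical.

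The extracellular matrix is the protein scaffold outside cells. Fibrillar collagens and the beaded filaments of type VI collagen fill connective tissue, laminins and type IV collagen form the sheets called basement membranes, and small proteoglycans such as decorin coat collagen fibrils. In the ovary, matrix lies in the stroma, the thecal layers and the basal lamina around each follicle and is remodelled at ovulation and luteal regression. In the testis it is concentrated in the wall of the seminiferous tubule, between Sertoli and peritubular myoid cells, and in the thin interstitium. Matrix metalloproteinases (MMPs) cleave the scaffold, and tissue inhibitors of metalloproteinases (TIMPs) block them.

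An ovary library held between 12912251 and 15907297 counts, and a testis library between 25880591 and 28266867. Levels are given as CPM, counts scaled to library size after TMM normalization over all 16 libraries. Levels of different genes are compared only as CPM per kb of annotated exon. The 33 genes took 1.27 ± 0.224% of all counts in CV ovaries (SD, n = 4), 1.16 ± 0.247% in GF ovaries (SD, n = 5), 0.131 ± 0.00461% in CV testes (SD, n = 4) and 0.126 ± 0.000392% in GF testes (SD, n = 3). Without Timp2 the share ran from 0.908 to 1.58% in the ovaries and from 0.0601 to 0.0745% in the testes. Spermatogenic markers summed to at most 6.21 CPM in any ovary and to at least 12486 CPM in any testis. The oviduct marker Ovgp1 stood at 1361 to 2905 CPM in the ovaries, and the sum of 4 adipocyte markers ran from 27.3 to 613 CPM across the same 9 libraries, so markers of tissue other than ovary were present and their sums differed between libraries. In bulk RNA, fewer cells of a type and less RNA per cell cannot be told apart.

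Promoter sequences were available from RefSeq for 23 of the 33 genes, as the bases before the annotated start on the build GRCm38.p6. The 5 shown are the 3 TIMP genes, of which only Timp2 was higher in the testis, and the fibrillar collagens Col3a1 and Col5a1, the most and the least reduced of their class. Each run is 250 bases long, 5′ to 3′ on the gene's own strand. Capitals mark matches on either strand to TATAAA (the TATA box), to CCAAT (the binding letters of NF-Y), to GGGCGG (the GC box) or to TGANTCA (an AP-1 site). Each motif was searched on its own, so matches of different motifs may overlap.
Timp1, chrX:20869916-20870165, plus strand: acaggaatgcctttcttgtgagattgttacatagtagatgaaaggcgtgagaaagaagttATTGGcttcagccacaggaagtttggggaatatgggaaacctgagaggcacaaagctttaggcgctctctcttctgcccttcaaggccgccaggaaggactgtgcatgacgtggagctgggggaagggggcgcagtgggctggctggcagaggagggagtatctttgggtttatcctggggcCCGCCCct
Timp2, chr11:118355412-118355661, minus strand: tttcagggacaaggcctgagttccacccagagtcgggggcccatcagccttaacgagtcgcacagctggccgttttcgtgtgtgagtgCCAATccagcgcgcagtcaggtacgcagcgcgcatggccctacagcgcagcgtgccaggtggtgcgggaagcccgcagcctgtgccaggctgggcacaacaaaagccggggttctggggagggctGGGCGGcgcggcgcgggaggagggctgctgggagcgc
Timp3, chr10:86300162-86300411, plus strand: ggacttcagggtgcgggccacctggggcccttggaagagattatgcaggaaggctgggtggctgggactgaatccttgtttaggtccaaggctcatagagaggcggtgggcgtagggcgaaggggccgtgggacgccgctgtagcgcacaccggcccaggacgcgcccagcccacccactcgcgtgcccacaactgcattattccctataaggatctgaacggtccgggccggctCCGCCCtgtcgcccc
Col3a1, chr1:45311288-45311537, plus strand: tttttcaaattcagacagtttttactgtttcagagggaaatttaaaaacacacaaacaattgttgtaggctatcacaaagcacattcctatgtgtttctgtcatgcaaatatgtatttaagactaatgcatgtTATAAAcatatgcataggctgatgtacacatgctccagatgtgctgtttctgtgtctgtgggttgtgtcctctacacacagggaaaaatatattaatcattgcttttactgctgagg
Col5a1, chr2:27886175-27886424, plus strand: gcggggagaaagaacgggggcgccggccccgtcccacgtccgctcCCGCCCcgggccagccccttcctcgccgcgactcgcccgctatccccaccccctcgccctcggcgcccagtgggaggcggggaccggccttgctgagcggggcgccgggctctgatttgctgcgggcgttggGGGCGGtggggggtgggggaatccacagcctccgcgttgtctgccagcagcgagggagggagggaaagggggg
The letters TATAAA were found in the Col3a1 window and in none of the other 4. Over all 32851 RefSeq promoters cut to the same length, 12.4% held TATAAA, 33.8% CCAAT, 32.7% GGGCGG and 6.75% TGANTCA. The letters of CCAAT were found in the windows of Timp1 and Timp2, GGGCGG in those of Timp1, Timp2, Timp3 and Col5a1, and TGANTCA in none of the 5. The dinucleotide CG occurred 6 times in the Timp1 window, 21 times in Timp2, 18 times in Timp3, 0 times in Col3a1 and 28 times in Col5a1, against a median of 6 over all promoters. Timp2, which was higher in the testis, and Timp3, which was lower, both held more CG than that median. Of the 23 genes matched, 11 held GGGCGG, 7 held CCAAT, 2 held TATAAA and 1 held TGANTCA, with 1 window counted for each gene. Postn, Col18a1 and Col6a2 had more than 1 window, and the first by position was counted. The uncounted window of Postn held TATAAA, and that of Col18a1 held CCAAT and GGGCGG. The shares over all 32851 promoters count every window. These matches describe letters and were not tested against the levels.

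The first comparison asks where the matrix genes stand in the 2 gonads. In CV animals 32 of the 33 were lower in the testis and 1, Timp2, was higher, by edgeR's quasi-likelihood test at a Benjamini-Hochberg adjusted p under 0.05. In GF animals, whose libraries the CV comparison does not use, 31 were lower, Timp2 was again higher, and Vtn did not pass. The background is high: 91.2% of the 21231 genes tested passed in CV (47.4% higher and 43.8% lower) and 89.2% of 21221 in GF (45.7% higher and 43.4% lower). CV ovaries and CV testes did not overlap in range for any of the 33 genes, 32 of them lower in the testis, and GF ovaries and testes did not overlap for 32, of which 31 were lower. Over all genes 89.1% were apart in this way in CV (46.7% higher and 42.4% lower) and 87.8% in GF (45.5% higher and 42.3% lower). Passing was common, and the list differed from the background in its direction. The median log2 fold change, testis over ovary, was -3.60 over the 33 genes and 0.11 over all genes in CV, and -3.64 and 0.04 in GF. The sign was negative for 32 genes under each of the 15 alternative settings in CV and the 15 in GF. The size depends on the scaling, because with total counts only the median of all genes moved to -0.69 in CV and -0.75 in GF, and the share of calls that were higher was 39.5% in place of 52.0% in CV and 38.5% in place of 51.3% in GF. Relative to that shift the median of the 33 genes, then -4.41 in CV, stood about as far below the median of all genes as before. In CV, 13 of the 33 genes were at least 16-fold lower in the testis. Markers of some cells that make matrix moved the same way. The 5 fibroblast and stroma markers summed to 346 to 448 CPM in ovaries and 35.8 to 46.3 in testes. The 6 smooth muscle and peritubular myoid markers summed to 1851 to 3037 and 207 to 236 CPM, and the 5 endothelial markers to 243 to 318 and 32.1 to 38.4 CPM. Each of them was called lower in the testis in both CV and GF. The 6 markers of Sertoli cells, which border the tubule wall, mostly went the other way. They summed to 124 to 175 CPM in ovaries and 324 to 350 in testes. Of these 6, 4 were called higher and 1 lower in CV, and 5 higher and 1 lower in GF. None of these markers was at 0 in a whole group, and their part in the result was not tested.

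**Figure D1:**
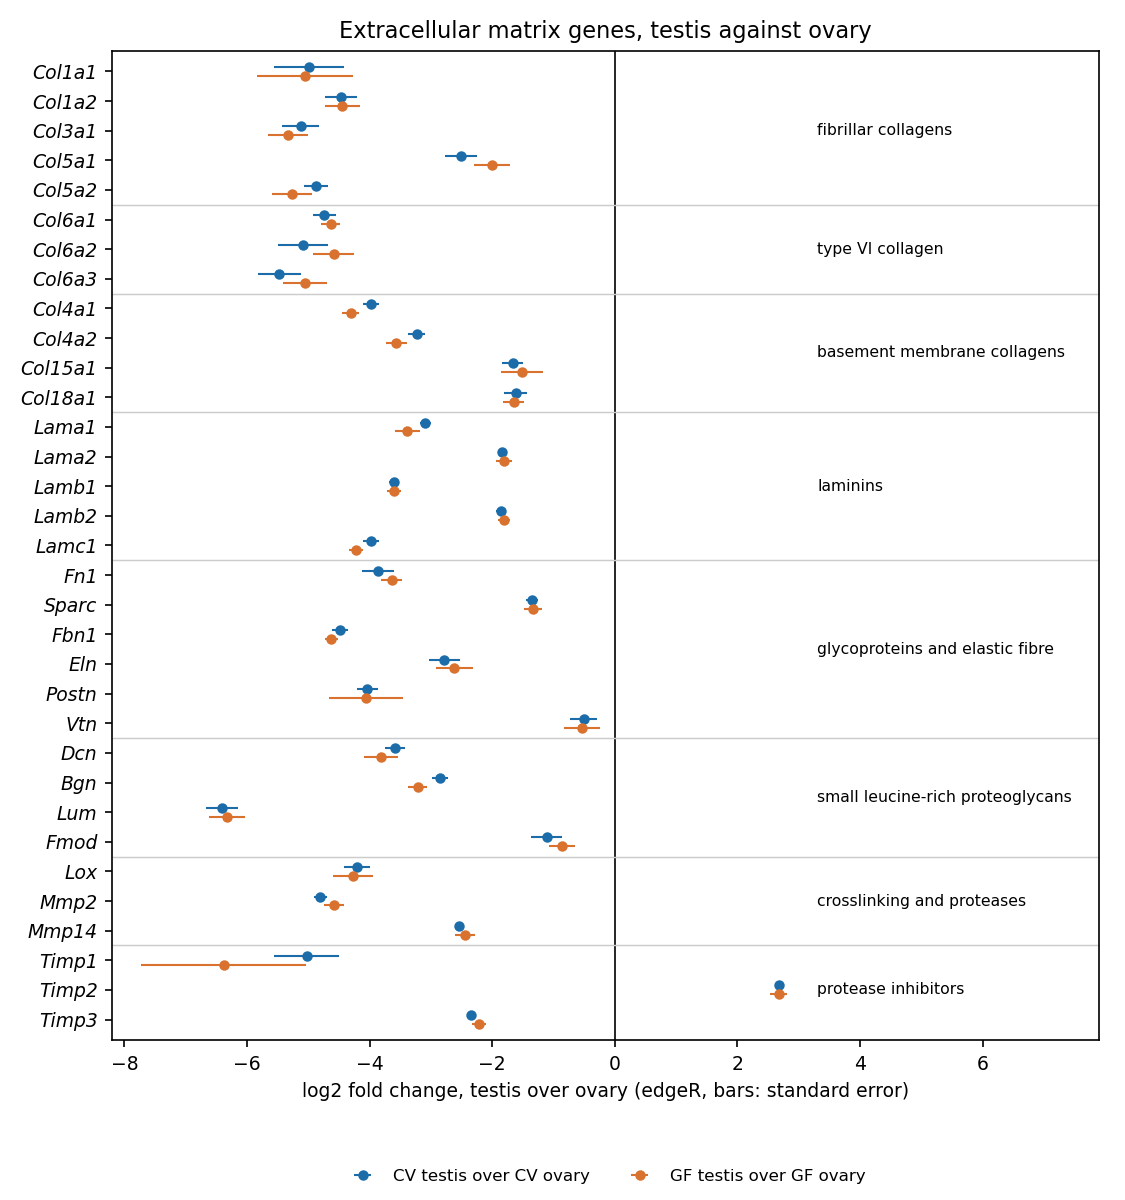
Log2 fold change, testis over ovary, of the 33 genes in CV animals (blue) and GF animals (orange), grouped by role; bars are standard errors from edgeR. All points lie left of 0 except those of Timp2, at 2.69 and 2.67, and those of Vtn and Fmod lie closest to 0.

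Fibrillar collagens, the rope-forming collagens of stroma, were all lower in the testis. Col3a1, the type III collagen of distensible tissue, stood at 1525, 2224, 1366 and 1563 CPM in CV ovaries and at 51.7, 28.2, 51.0 and 60.7 CPM in CV testes. In GF animals it stood at 1027, 1789.9, 1321, 1064 and 2159.8 CPM in ovaries and at 35.9, 35.9 and 37.9 CPM in testes. Every ovary was at least an order of magnitude above every testis. The log2 fold change was -5.12 (SE 0.302, adjusted p = 1.74e-06, edgeR) in CV and -5.33 (SE 0.322, adjusted p = 3.30e-07) in GF. Col5a1, a minor collagen that regulates the width of type I fibrils, had the smallest change of the class. It stood at 138, 258, 131 and 142 CPM in CV ovaries, at 90.2, 213, 123, 102 and 163 CPM in GF ovaries, at 29.8, 27.8, 34.7 and 25.4 CPM in CV testes and at 32.2, 36.9 and 34.0 CPM in GF testes. The groups did not overlap, and the log2 fold change was -2.51 (SE 0.260, adjusted p = 4.69e-05) in CV and -2.01 (SE 0.292, adjusted p = 0.000167) in GF. Col5a2, whose chain is built into the same type V molecules, fell by 4.87 on the log2 scale in CV (SE 0.203), and the difference between the 2 chains was not tested. Col5a2, the alpha 2 chain, ran from 146 to 207 CPM in CV ovaries, 115 to 219.8 in GF ovaries, 3.46 to 6.40 in CV testes and 3.54 to 4.96 in GF testes. Col5a2 lies 24614 bp from Col3a1 on chromosome 1.

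Col1a1 and Col1a2, the 2 chains of type I collagen, fell by 4.99 and 4.47 on the log2 scale in CV. Col1a2, the alpha 2 chain of type I collagen, ran from 800.0 to 1318 CPM in CV ovaries, 478 to 992 in GF ovaries, 29.9 to 53.3 in CV testes and 31.7 to 36.8 in GF testes. Col1a1 ran from 5.92 to 21.2 CPM in CV testes and 9.20 to 12.3 in GF testes, with 293 to 834 CPM in CV ovaries. The ratio of Col1a1 to Col1a2 counts is free of library scaling. It ran from 0.234 to 0.752 across the 9 ovaries, a range of 3.22-fold, and from 0.198 to 0.438 across the 7 testes. The type I chains thus did not keep a fixed ratio between libraries of 1 tissue. Col4a1 and Col4a2, whose chains are joined in type IV collagen, kept a tighter one, from 2.17 to 2.52 in the ovaries and from 1.14 to 1.55 in the testes. The ovary and testis ranges of that ratio did not overlap. Col4a1 (chr8:11198423-11312826) and Col4a2 (chr8:11312805-11449287) lie head to head on opposite strands and overlap by 22 bp in GENCODE M21, and whether reads were counted by strand is not given in the sources used here.

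Type VI collagen, the beaded filament around cells, fell evenly, with all 3 chains between -4.74 and -5.47 on the log2 scale in CV. Col6a3 stood at 379.8, 935, 476 and 541 CPM in CV ovaries, at 223, 605, 453, 377 and 507 CPM in GF ovaries, at 15.3, 11.4, 12.5 and 13.6 CPM in CV testes and at 12.3, 13.3 and 13.3 CPM in GF testes. On the log2 scale the change was -5.47 (SE 0.352, adjusted p = 3.44e-06, edgeR) in CV and -5.06 (SE 0.360, adjusted p = 1.30e-06) in GF. In CV, Col6a1 had the smallest change of the class. It ran from 488 to 777 CPM in CV ovaries, 377 to 555 CPM in GF ovaries, against 24.2, 18.5, 23.4 and 24.1 CPM in CV testes and 18.9, 19.0 and 19.2 CPM in GF testes, a log2 fold change of -4.74 (SE 0.185, adjusted p = 2.27e-08) in CV. No testis library reached the ovary range for either gene. Col6a2, the third obligate chain, ran from 227 to 519.9 CPM in CV ovaries, 130.3 to 328 in GF ovaries, 5.92 to 11.9 in CV testes and 8.85 to 9.87 in GF testes.

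Basement membrane collagens split in 2. Col4a1, the chain of the basement membrane network, stood at 647, 542, 445 and 504 CPM in CV ovaries, at 667, 744, 549.8, 532 and 695 CPM in GF ovaries, at 37.7, 30.4, 31.5 and 36.7 CPM in CV testes and at 33.6, 30.2 and 32.8 CPM in GF testes. This gave a log2 fold change of -3.98 (SE 0.132, adjusted p = 7.98e-10, edgeR) in CV and -4.31 (SE 0.138, adjusted p = 2.88e-10) in GF. Col18a1, the collagen from which endostatin is cut, stood at 92.3, 67.3, 53.5 and 58.6 CPM in CV ovaries, at 74.7, 97.6, 61.4, 58.0 and 74.8 CPM in GF ovaries, at 19.4, 21.9, 20.9 and 26.6 CPM in CV testes and at 25.1, 20.7 and 24.4 CPM in GF testes. Testis over ovary, the log2 fold change was -1.62 (SE 0.186, adjusted p = 3.23e-05) in CV and -1.65 (SE 0.169) in GF. Col15a1, its close relative, was alike at -1.67 (SE 0.176) in CV. The groups did not overlap for any of these genes. The 2 type IV chains, at -3.98 and -3.23 in CV, had larger changes than types XV and XVIII, a difference between genes that was not tested. Col4a2, the partner chain of Col4a1, ran from 188 to 279.7 CPM in CV ovaries, 215 to 337 in GF ovaries, 21.5 to 27.5 in CV testes and 20.02 to 24.6 in GF testes. Col15a1, a multiplexin of basement membrane zones, ran from 90.6 to 157 CPM in CV ovaries, 54.0 to 145 in GF ovaries, 32.7 to 37.2 in CV testes and 32.4 to 38.1 in GF testes. No range of an ovary group met one of a testis group.

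The laminins split by chain. Lamc1, the gamma chain of most laminins, stood at 225, 248, 195 and 218 CPM in CV ovaries, at 227, 234, 231, 269 and 286 CPM in GF ovaries, at 17.1, 11.2, 12.7 and 15.3 CPM in CV testes and at 13.6, 12.0 and 14.3 CPM in GF testes. The log2 fold change was -3.98 (SE 0.128, adjusted p = 2.74e-10, edgeR) in CV and -4.23 (SE 0.114) in GF. Lama2, the alpha chain of muscle-type laminin, stood at 215, 178, 188 and 199.7 CPM in CV ovaries, at 175, 155, 186, 232 and 217 CPM in GF ovaries, at 53.9, 48.9, 57.1 and 58.7 CPM in CV testes and at 54.5, 58.6 and 52.1 CPM in GF testes. On the log2 scale the change was -1.84 (SE 0.0736, adjusted p = 3.09e-11) in CV and -1.81 (SE 0.133) in GF. Lamb2, at -1.86 in CV, was close to Lama2, and Lamb1, at -3.60, and Lama1, at -3.09, were nearer Lamc1. Lamb1, a widely used beta chain, ran from 261 to 294 CPM in CV ovaries, 254 to 324 in GF ovaries, 19.5 to 24.7 in CV testes and 21.05 to 24.6 in GF testes. Lamb2, the beta chain of synapses and kidney filters, ran from 121 to 156 CPM in CV ovaries, 134 to 169.9 in GF ovaries, 36.5 to 43.4 in CV testes and 42.2 to 43.9 in GF testes. Lama1, the alpha chain of the first laminin described, ran from 179 to 229.8 CPM in CV ovaries, 207 to 349 in GF ovaries, 22.2 to 26.3 in CV testes and 23.8 to 26.3 in GF testes. Per kb of exon, Lamb2 was the laminin with the highest level in CV testes, at 6.45, while in CV ovaries Lamb1 was at 27.7, Lamc1 at 26.8 and Lamb2 at 23.3.

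Among glycoproteins and elastic fibre genes, Fbn1, the microfibril protein fibrillin-1, had the largest change. It stood at 298, 370.0, 297 and 340.2 CPM in CV ovaries, at 275, 318, 322, 349 and 363 CPM in GF ovaries, at 15.2, 11.4, 14.0 and 17.6 CPM in CV testes and at 13.5, 13.3 and 12.8 CPM in GF testes. The log2 fold change was -4.49 (SE 0.131, adjusted p = 1.59e-10, edgeR) in CV and -4.62 (SE 0.108, adjusted p = 2.22e-11) in GF. Vtn, the plasma and matrix adhesion protein vitronectin, was the exception. It stood at 2.02, 2.49, 1.92 and 2.36 CPM in CV ovaries, at 1.77, 2.23, 3.84, 1.68 and 2.48 CPM in GF ovaries, at 1.43, 1.78, 1.07 and 1.90 CPM in CV testes and at 1.79, 1.82 and 1.32 CPM in GF testes. Its counts were 29 to 68 in an ovary and 21 to 39 in a testis. The CV groups did not overlap and the GF groups did. This gave a log2 fold change of -0.51 (SE 0.219, adjusted p = 0.0418) in CV and -0.54 (SE 0.297, adjusted p = 0.109) in GF, and over the 15 alternative settings in CV the adjusted p ran from 6.46e-05 to 0.168, passing in 6, of which 1 repeats the fit given here because all CV libraries have a partner. Sparc, the collagen-binding protein osteonectin, fell by only 1.34 on the log2 scale (SE 0.0987) and held 271 to 311 CPM in CV testes and 266 to 285 in GF testes, against 580.1 to 836 CPM in CV ovaries and 519 to 886 in GF ovaries. Fn1, Postn and Eln fell by 3.87, 4.04 and 2.78 on the log2 scale in CV. Fn1, fibronectin, ran from 169.9 to 330.3 CPM in CV ovaries, 187 to 283 in GF ovaries, 15.7 to 20.1 in CV testes and 14.6 to 18.8 in GF testes. Postn, periostin, a matricellular protein, ran from 135 to 223 CPM in CV ovaries, 85.5 to 367 in GF ovaries, 8.64 to 11.8 in CV testes and 10.2 to 11.02 in GF testes. Eln, elastin, ran from 15.1 to 27.4 CPM in CV ovaries, 8.49 to 18.9 in GF ovaries, 1.62 to 3.71 in CV testes and 2.01 to 2.75 in GF testes. No range of an ovary group met one of a testis group.

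The small leucine-rich proteoglycans, which bind collagen fibrils, held in CV both the largest and one of the smallest changes of the 33 genes. Lum (lumican) stood at 176, 336, 246 and 252 CPM in CV ovaries, at 142, 203, 235, 182 and 287 CPM in GF ovaries, at 3.66, 2.30, 2.74 and 3.12 CPM in CV testes and at 2.95, 2.16 and 2.70 CPM in GF testes. The testis libraries held 44 to 69 counts each, against 2901 to 6344 in the ovaries. Testis over ovary, the log2 fold change was -6.41 (SE 0.262, adjusted p = 7.11e-08, edgeR) in CV and -6.33 (SE 0.294, adjusted p = 2.72e-08) in GF. Fmod (fibromodulin) was low in both gonads, at 5.71, 5.83, 3.78 and 5.73 CPM in CV ovaries, 4.96, 4.23, 6.60, 3.58 and 4.91 CPM in GF ovaries, 2.23, 1.31, 2.74 and 3.46 CPM in CV testes and 2.85, 2.26 and 2.90 CPM in GF testes. The log2 fold change was -1.11 (SE 0.253, adjusted p = 0.00106) in CV and -0.86 (SE 0.218, adjusted p = 0.00338) in GF. Dcn (decorin) and Bgn (biglycan) fell by 3.58 and 2.85 on the log2 scale in CV. Ovary levels of Dcn were 509 to 843 CPM in CV and 318 to 710.4 CPM in GF. Bgn, a close relative of decorin, ran from 92.1 to 110.4 CPM in CV ovaries, 84.9 to 138 in GF ovaries, 10.6 to 16.7 in CV testes and 11.7 to 12.6 in GF testes. Dcn (chr10:97479609-97518143) and Lum (chr10:97565128-97572703) are 46984 bp apart, in a row that also holds Epyc (epiphycan, a cartilage proteoglycan) 71364 bp beyond Lum. Epyc is a matrix gene outside the 33 and went the other way. It had 6 counts over all CV ovaries and 1 over all GF ovaries, and stood at 47.2, 45.5, 44.8 and 47.9 CPM in CV testes and 40.6, 40.5 and 43.5 CPM in GF testes.

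The crosslinking enzyme and the proteases were all lower in the testis. Mmp2, the gelatinase A that digests denatured and type IV collagen, stood at 92.7, 102, 90.7 and 96.6 CPM in CV ovaries, at 76.2, 86.1, 78.3, 65.6 and 96.2 CPM in GF ovaries, at 3.39, 2.41, 3.86 and 4.00 CPM in CV testes and at 3.48, 3.79 and 2.75 CPM in GF testes. On the log2 scale the change was -4.80 (SE 0.111, adjusted p = 1.19e-13, edgeR) in CV and -4.59 (SE 0.164, adjusted p = 6.55e-10) in GF. Mmp14, the membrane-bound protease that activates Mmp2, stood at 117, 118, 105 and 108 CPM in CV ovaries, at 86.7, 129, 95.9, 87.0 and 119 CPM in GF ovaries, at 19.3, 19.3, 17.8 and 20.1 CPM in CV testes and at 19.5, 16.7 and 20.7 CPM in GF testes. It fell less, with a log2 fold change of -2.55 (SE 0.0604, adjusted p = 1.36e-13) in CV and -2.45 (SE 0.162) in GF. Lox, the lysyl oxidase that crosslinks collagen and elastin, fell by 4.21 on the log2 scale in CV. Its level ran from 25.2 to 44.3 CPM in CV ovaries, 22.5 to 49.3 in GF ovaries, 1.36 to 2.34 in CV testes and 1.58 to 2.22 in GF testes.

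The TIMPs went apart. Timp1, the inducible inhibitor, stood at 34.2, 11.9, 11.1 and 24.9 CPM in CV ovaries, at 18.1, 113, 16.4, 11.3 and 21.7 CPM in GF ovaries, at 0.530, 0.681, 0.559 and 0.732 CPM in CV testes and at 0.528, 0.492 and 0.254 CPM in GF testes, where it had 5 to 15 counts in a library. This gave a log2 fold change of -5.03 (SE 0.535, adjusted p = 3.37e-05, edgeR) in CV and -6.38 (SE 1.34, adjusted p = 0.00273) in GF, with the largest SE of the 33 genes in GF. Timp3, the inhibitor bound to the matrix, stood at 241, 242, 207 and 222 CPM in CV ovaries, at 191, 267, 214, 200.1 and 216 CPM in GF ovaries, at 42.2, 43.6, 45.8 and 47.7 CPM in CV testes and at 45.3, 46.3 and 48.8 CPM in GF testes. Testis over ovary, the log2 fold change was -2.35 (SE 0.0631, adjusted p = 4.88e-13) in CV and -2.22 (SE 0.110) in GF. Timp2, which inhibits Mmp2 and also helps Mmp14 to activate it, was high in the testis. It stood at 144, 152, 124 and 125 CPM in CV ovaries, at 103, 137, 135, 104 and 162 CPM in GF ovaries, at 875, 899, 883 and 854 CPM in CV testes and at 831, 815 and 807 CPM in GF testes. The lowest testis was far above the highest ovary, and the log2 fold change was 2.69 (SE 0.0672, adjusted p = 2.35e-13) in CV and 2.67 (SE 0.137, adjusted p = 1.99e-08) in GF.

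A second gene lies inside Timp2 and moved with it in the testis. BC100451, named Cep295nl in GENCODE M21 (chr11:118332360-118342500), is on the same strand as Timp2 and shares 0 bp of exon with it. It was looked up after the Timp2 values were seen. It stood at 4.93, 6.52, 4.08 and 3.65 CPM in CV ovaries, at 5.11, 6.23, 5.02, 3.99 and 5.47 CPM in GF ovaries, at 779, 800.4, 789 and 749 CPM in CV testes and at 733, 716 and 706 CPM in GF testes. The log2 fold change was 7.33 (SE 0.133, adjusted p = 5.93e-13, edgeR) in CV and 7.12 (SE 0.113, adjusted p = 1.55e-12) in GF, larger than that of Timp2. The ratio of BC100451 to Timp2 counts was between 0.876 and 0.893 in all 7 testes, a range of 1.02-fold, and between 0.0292 and 0.0498 in the 9 ovaries. The part that reads of the inner gene, or of transcripts that cross both, have in the Timp2 counts of the testis was not tested.

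**Figure D2:**
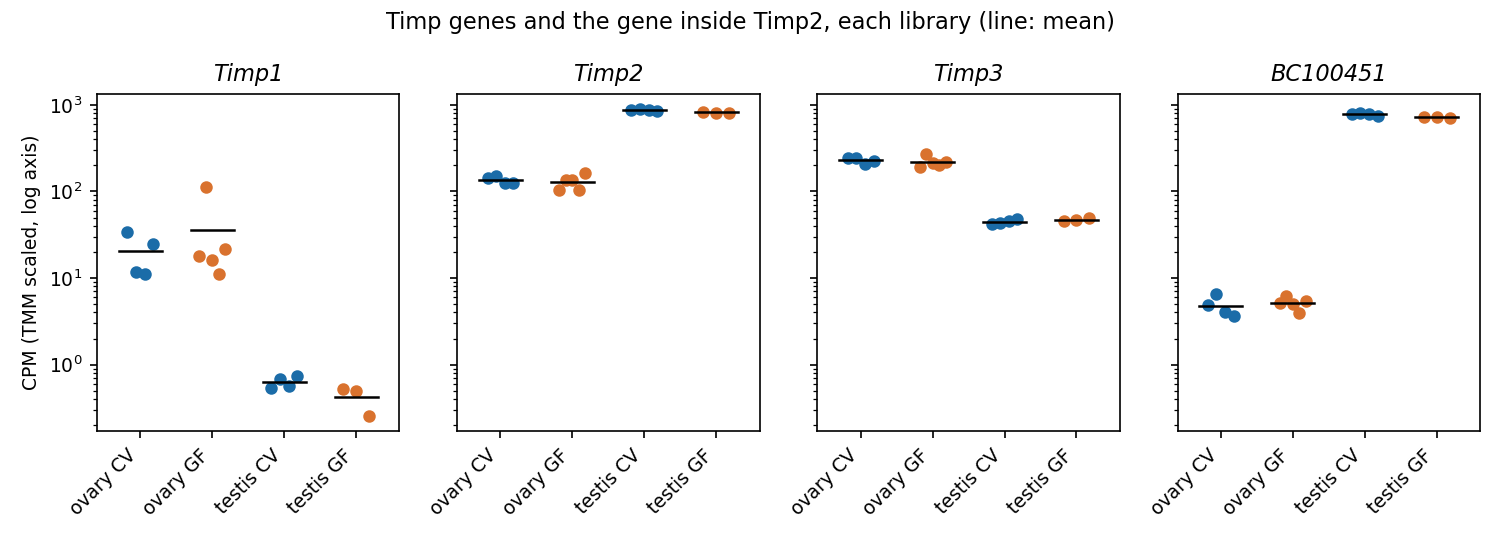
CPM of Timp1, Timp2, Timp3 and BC100451 in each library (log axis), CV in blue and GF in orange; the line is the mean of the group. Timp1 and Timp3 are lower in the testis, and Timp2 and BC100451 higher, with 1 GF ovary at 113 CPM of Timp1.

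Per kb of exon, the order of levels differed between the gonads. In CV ovaries the highest of the 33 were Sparc at 191 (libraries from 153 to 221), Col3a1 at 170, Col6a1 at 137, Dcn at 112 and Lum at 103. The libraries of these neighbours overlapped in range, so their order is not fixed beyond that spread. In CV testes Timp2 at 225 and Sparc at 75.2 stood clear of all others, Dcn followed at 9.38, and 30 of the 33 were below that. Of the summed level per kb, fibrillar collagens held 24.3% in CV ovaries and 3.80% in CV testes, type VI collagen 15.3% and 1.91%, and TIMPs 5.89% and 60.1%. In CV testes Timp2 alone held 58.5%, Timp3 1.43% and Timp1 0.183%, so the testis shares of all classes depend on Timp2.

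**Figure D3:**
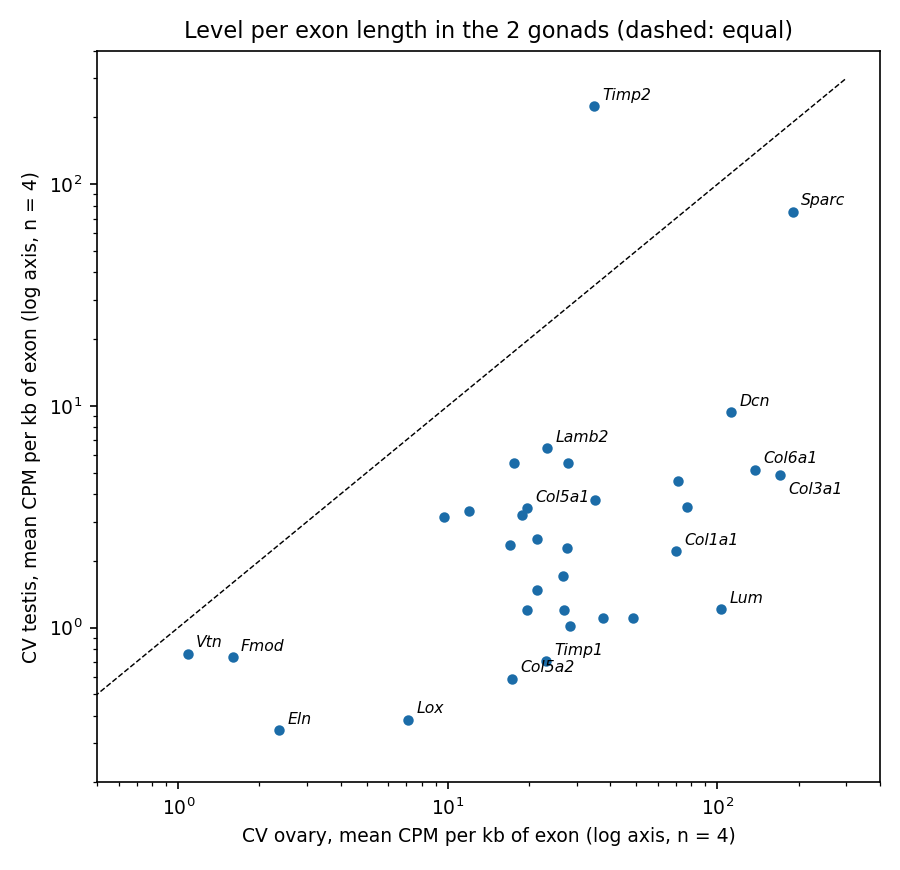
Mean CPM per kb of exon of the 33 genes in CV ovaries (horizontal) and CV testes (vertical), both on log axes, n = 4 in each; the dashed line marks equal levels. Timp2 lies above the line at 35.0 and 225, Vtn and Fmod lie nearest below it, and Lum lies far below it at 103 and 1.21.

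The other matrix genes, 121 symbols from a list of matrix families, showed the same lean. In CV, 101 of 119 tested were lower in the testis and 7 higher, against 43.8% and 47.4% of all genes. In GF, 99 of 120 were lower and 6 higher, against 43.4% and 45.7% of all genes. The medians were -2.58 in CV and -2.63 in GF on the log2 scale. Serpinh1, the chaperone that folds collagen, was at -5.04 (SE 0.0853) in CV and -5.18 (SE 0.104) in GF, and the crosslinking enzyme Loxl2 was at -5.70 (SE 0.155) and -6.10 (SE 0.229). Among secreted and surface genes, Vcan (versican) was at -6.07 in CV, Tnc (tenascin C) at -5.66, Thbs1 (thrombospondin 1) at -5.63, Serpine2 (protease nexin 1) at -6.76, Mmp16 at -4.99, Cd44 (hyaluronan receptor) at -6.20, Itgb3 at -4.67, Mfap2 at -6.17, Fbln2 at -5.35 and Lama4 at -4.37, and each was called lower in GF as well. The 6 genes higher in the testis in both CV and GF were Col2a1, Col9a1, Col9a3, Col11a2, Col16a1 and Epyc. Col2a1, Col9a1, Col9a3 and Col11a2 encode collagens of cartilage, and Col9a3, Col11a2 and Col16a1 were named after their values were seen. Col2a1 had 2 counts over all CV ovaries and 4704 over all CV testes, a ratio of 2187 with a 95% counting interval from 605 to 18064, and in GF 11 and 3635, a ratio of 517 (288 to 1036). Col9a1 had 0 counts in every ovary and was at least 184-fold higher in CV testes and at least 254-fold higher in GF testes, against a floor of 3 counts over the ovary group. Epyc had 6 counts over CV ovaries and 3621 over CV testes, a ratio of 561 (95% counting interval 258 to 1530), and in GF 1 and 2448, a ratio of 3828 (686 to 151254). These intervals cover counting error only. Col9a3, at 4.61 (SE 0.278) in CV, overlaps exons of Tcfl5 on the opposite strand by 234 bp, and Tcfl5 had 85719 counts over the testes.

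The second comparison asks what differs in the ovary without microbes. None of the 33 genes was called by edgeR, against 0.177% of all 18095 genes tested (0.111% higher and 0.0663% lower). Mmp2 alone had an unadjusted p under 0.05, with a log2 difference, GF over CV, of -0.25 (SE 0.0964, adjusted p = 0.706, edgeR). Over all genes 6.48% had such an unadjusted p by edgeR. DESeq2 gave 0 calls and 3 such genes among the 33, against 6.47% of all genes. None of the 16 alternative settings gave a call. None of the 33 had group ranges apart, against 2.76% of all genes (1.33% higher and 1.43% lower). The median log2 difference was -0.08 over the 33 genes and 0.01 over all genes. Of the 33 genes 21 were negative, against 48.3% of all genes. All 5 fibrillar collagens and all 3 type VI chains had negative values, with medians of -0.28 and -0.43, while 3 of 4 basement membrane collagens and 4 of 5 laminins had positive ones. None of these values passed the test.

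Libraries of 1 group differed widely. Col1a1 stood at 398, 834, 322 and 293 CPM in CV ovaries and at 112, 722, 259, 176 and 447 CPM in GF ovaries, a range of 7.47-fold over the tissue. The highest library was a CV and the lowest a GF ovary, but the second highest was GF and the groups overlapped over most of their range (log2 -0.43, SE 0.589, adjusted p = 0.927, edgeR). CV replicate 2 was the highest CV ovary for 24 of the 33 genes, and without it Col1a1 moved to a log2 difference of 0.02 and only 15 of the 33 were negative, with a median of 0.02. GF replicates 1 and 4 were each the lowest GF ovary for 14 genes, and GF replicates 2 and 5 were each the highest for 14. The collagen order ran in part with markers of other cells. The summed fibrillar collagens were highest in CV replicate 2, at 4842 CPM, and lowest in GF replicate 1, at 1828 CPM, and then GF replicate 4, at 2107 CPM. The 6 smooth muscle markers were also highest in CV replicate 2, at 3037 CPM, and lowest in GF replicates 4 and 1, at 1851 and 1896 CPM, as were the 4 adipocyte markers, at 613, 27.3 and 29.2 CPM. The orders were not the same throughout: GF replicate 3 held 584 CPM of adipocyte markers and 2543 CPM of fibrillar collagens. The 5 fibroblast and stroma markers summed to 383 to 409 CPM in CV and 346 to 448 CPM in GF. They were lowest in GF replicates 4 and 1, at 346 and 360 CPM. CV replicate 2 held only 384 CPM of them, below CV replicate 1 at 409 and GF replicate 5 at 448. The 5 macrophage markers were highest in GF replicate 3, at 377 CPM, and lowest in GF replicate 4, at 176 CPM. No marker of the smooth muscle, adipocyte and fibroblast lists was at 0 in a whole group. The part of these cells in the collagen values was not tested.

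**Figure D4:**
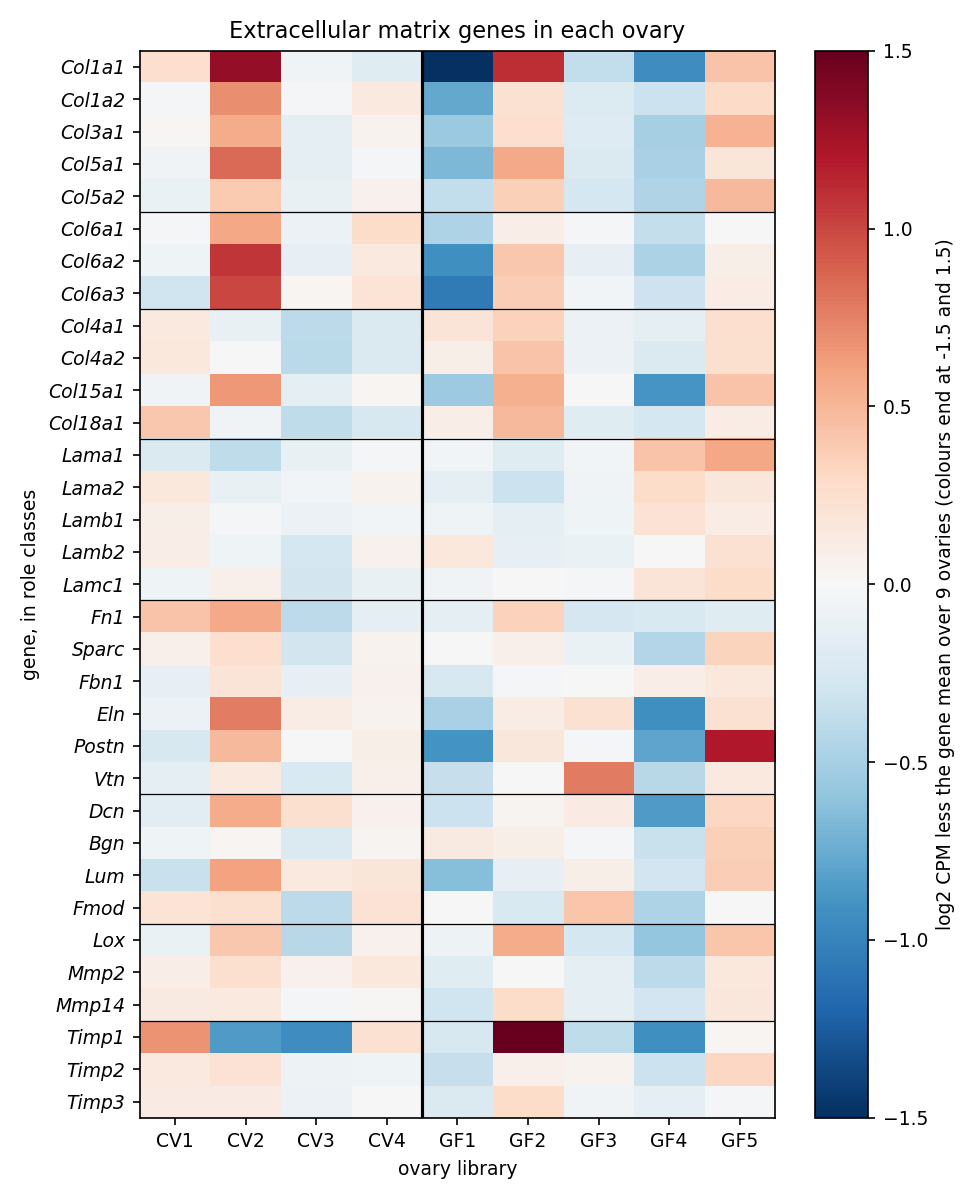
Log2 CPM of each of the 33 genes in each ovary less the gene's mean over the 9 ovaries, with CV left and GF right of the line; colours end at -1.5 and 1.5. The fibrillar and type VI collagens are high in CV2 and low in GF1 and GF4, and laminins vary less.

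Laminins were steadier, with sums from 982 to 1093 CPM in CV ovaries and 983 to 1323 CPM in GF ovaries, a range of 1.35-fold over the 9 ovaries against 2.65-fold for fibrillar collagens and 3.06-fold for type VI. Timp1 was set by 1 library: GF replicate 2 held 113 CPM and the other GF ovaries 11.3 to 21.7, and without it the log2 difference moved from 0.81 (SE 0.788) to -0.28 (SE 0.398), neither passing. Deviations of same-numbered CV and GF ovaries correlated at 0.227 to 0.418, while some ovaries with different numbers correlated as much (0.414 for GF replicate 5 and CV replicate 2). The replicate number was also fitted as a block, on the 4 pairs. Of the 33 genes, 11 were lower in the GF library of all 4 pairs and 2 were higher in all 4. The same share over all genes was not counted, so these 2 counts cannot be set against a background. These signs are not independent between genes, because all genes share the same libraries. Negative values numbered 27 of the 33 in pair 1, 24 in pair 2, 13 in pair 3 and 27 in pair 4. CV replicate 2, the highest CV ovary for 24 of the 33, enters pair 2 only. GF replicates 1 and 4, each the lowest GF ovary for 14, enter pairs 1 and 4. With the block, 14 of the 33, or 42.4%, had an unadjusted p under 0.05, 12 of them negative, against 9.63% of all genes. None was called: the lowest adjusted p was 0.0771 for Col1a2 (log2 -0.46, SE 0.0860, edgeR), whose adjusted p ran up to 0.99 over the settings. Over all genes the block gave 91 calls, against 33 on the same 4 pairs without it and 32 on all 9 ovaries. On the 4 pairs without the block, 1 of the 33 genes had an unadjusted p under 0.05, against 6.57% of all genes.

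The third comparison asks the same of the testis. There, 2 of the 33 genes were called, both lower in GF: Dcn and Timp2. Over the whole table the share was 8.08% of the 20269 genes tested (3.67% higher and 4.41% lower). Group ranges were apart for 3 of the 33, Dcn, Timp1 and Timp2, all lower, against 10.6% of all genes apart in that direction, 6.81% in the other and 17.4% in either. Timp1, with 5 to 15 counts in a testis, did not pass (log2 -0.54, SE 0.395, adjusted p = 0.509). The list as a whole stood near the background, with a median log2 difference of -0.02 against 0.00 over all genes. DESeq2 called the same 2 genes.

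Dcn, the collagen-coating proteoglycan decorin, stood at 53.7, 48.0, 58.6 and 58.6 CPM in CV testes and at 40.4, 39.4 and 35.4 CPM in GF testes, from 695 to 1202 counts in a library. The highest GF testis was below the lowest CV testis. The log2 difference was -0.49 (SE 0.0641, adjusted p = 6.49e-06, edgeR), or 1.41-fold lower, in 3 of 3 GF libraries. It was called in 13 of 14 alternative settings, with log2 values from -0.55 to -0.44, and lost in the joint fit of all libraries (adjusted p = 0.722, over a range from 5.51e-18). In the ovary Dcn had a log2 difference of -0.29 (SE 0.235, adjusted p = 0.881), and the tissues' differences were not shown to differ (interaction -0.22, SE 0.302, adjusted p = 0.936). Timp2 had 875, 899, 883 and 854 CPM in CV and 831, 815 and 807 CPM in GF testes, a log2 difference of -0.08 (SE 0.0266, adjusted p = 0.0399). The groups were apart by a narrow gap. The call was lost without CV replicate 1, 2 or 3 or GF replicate 2 or 3, among others, and held in 8 of 14 alternative settings, whose adjusted p ran from 0.00252 to 1. BC100451 fell by 0.10 on the log2 scale (SE 0.0277, adjusted p = 0.0174), with a ratio to Timp2 counts of 0.888 ± 0.00727 in CV (SD, n = 4) and 0.879 ± 0.00327 in GF (SD, n = 3).

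More of the list was called lower in GF testes without CV replicate 2. With it, dropping the filter on low counts also called Col5a2 and Col6a1 lower, beside Dcn and Timp2. Over all genes that setting called 767 higher and 1024 lower of 32499. CV replicate 2 was the lowest CV testis for 21 of the 33 genes, so leaving it out by itself raises the CV mean of those genes. Col3a1 stood at 51.7, 28.2, 51.0 and 60.7 CPM in CV and at 35.9, 35.9 and 37.9 CPM in GF, so that replicate 2 lay below all GF testes and the other 3 CV libraries above them. With all libraries its log2 difference was -0.37 (SE 0.270, adjusted p = 0.560, edgeR). Without CV replicate 2 it was -0.56 (adjusted p = 8.23e-09). That fit called 6 of the 33, all lower: Col1a2, Col3a1, Col5a2, Col6a1, Bgn and Dcn, at -0.44, -0.56, -0.63, -0.31, -0.36 and -0.55. Over all genes the same fit called 1426 of 20139, 637 higher and 789 lower. Col5a2 stood at 6.31, 3.46, 6.40 and 6.39 CPM in CV and at 4.96, 3.54 and 3.77 CPM in GF, and Col6a1 had the same shape. Bgn stood at 13.7, 10.6, 16.7 and 16.5 CPM in CV and at 11.7, 12.6 and 11.8 CPM in GF. Col5a1 went the other way, with 29.8, 27.8, 34.7 and 25.4 CPM in CV and 32.2, 36.9 and 34.0 CPM in GF (log2 0.25, SE 0.0868, adjusted p = 0.111), and was called higher without CV replicate 3 (0.33, adjusted p = 0.00120) or without the filter on low counts. Lamb2 (log2 0.14, SE 0.0570, adjusted p = 0.138) was called higher without CV replicate 4 (0.19, adjusted p = 0.0212). Over the 14 alternative settings the adjusted p reached 0.975 for Col3a1, 1 for Col5a1 and 0.975 for Lamb2.

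**Figure D5:**
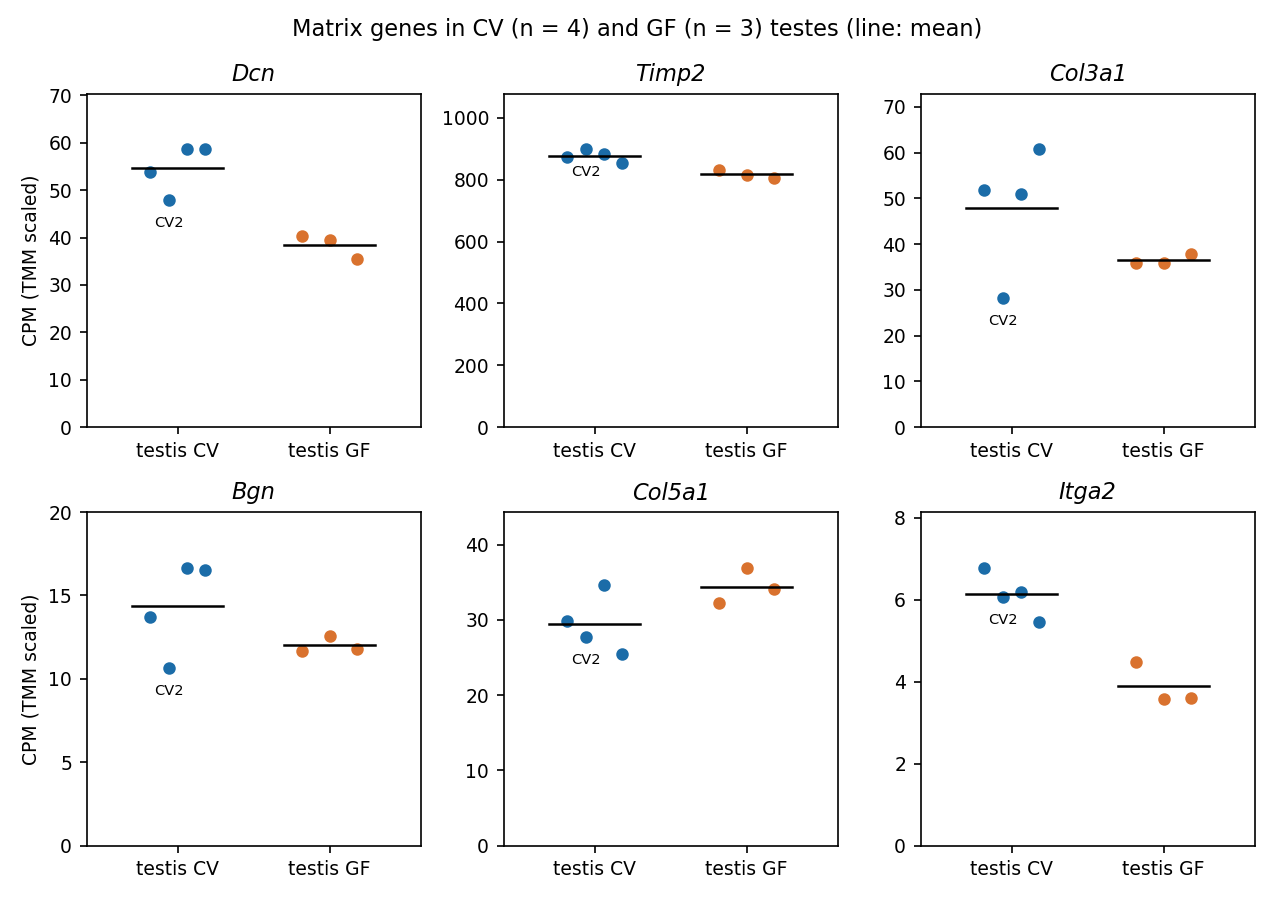
CPM of 5 of the 33 genes and of Itga2 in each CV (blue, n = 4) and GF (orange, n = 3) testis; lines are means and axes start at 0. Dcn and Itga2 are apart, Timp2 is apart by little, and CV2 lies below the other CV testes for Dcn, Col3a1 and Bgn.

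Some markers of testis cells were also called, in both directions, against 8.08% of all genes. The 6 smooth muscle and peritubular myoid markers summed to 214 to 236 CPM in CV and 207 to 212 CPM in GF, ranges apart, and 1 of the 6, Acta2, was called lower (log2 -0.16). The 5 macrophage markers summed to 114 to 121 CPM in CV and 105 to 112 CPM in GF, with 1 of 5, Lyz2, called lower (-0.22). The 5 fibroblast and stroma markers overlapped, at 39.2 to 46.3 CPM and 35.8 to 43.1 CPM, and none of the 4 tested was called. Of the 5 endothelial markers 1, Egfl7, was called higher (0.43), with sums of 32.1 to 36.7 CPM in CV and 32.2 to 38.4 CPM in GF. Of the 6 spermatogenic markers 1, Acr, was called lower (-0.12), with sums of 13066 to 13749.9 CPM in CV and 12486 to 13431 CPM in GF. The oviduct epithelium list names no cell type of the testis, and of its 3 tested genes 1, Epcam, was called lower (-0.16). None of the Sertoli or the theca and Leydig markers was called. No marker of the smooth muscle, macrophage and fibroblast lists was at 0 in a whole group. The part of these cells in the Dcn difference was not tested.

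Of the other matrix genes, 113 were tested in the testis and 4 were called, 1 higher and 3 lower, against 8.08% of all genes. Col14a1, a collagen that associates with fibrils and binds decorin, stood at 24.9, 23.4, 26.2 and 27.9 CPM in CV and at 19.6, 17.8 and 21.9 CPM in GF (log2 -0.36, SE 0.0734, adjusted p = 0.000898, edgeR). Lamb3, a chain of epithelial laminin, stood at 12.0, 10.5, 9.96 and 11.5 CPM in CV and at 8.34, 7.33 and 7.89 CPM in GF (-0.47, SE 0.101, adjusted p = 0.00161). Itga2, the collagen-binding integrin alpha 2, stood at 6.79, 6.08, 6.20 and 5.46 CPM in CV and at 4.49, 3.59 and 3.61 CPM in GF (-0.64, SE 0.138, adjusted p = 0.00160). For all 3 the GF testes lay below all CV testes. Fbn2, the microfibril protein fibrillin-2, was higher, at 87.0, 90.8, 89.9 and 96.1 CPM in CV and at 104, 97.8 and 96.2 CPM in GF (0.14, SE 0.0406, adjusted p = 0.0203). Col14a1, Lamb3 and Itga2 were each called in 13 of 14 alternative settings and Fbn2 in 9. In the ovary 0 of 117 such genes were called by edgeR, against 0.177% of all genes. An unadjusted p under 0.05 was seen for 5 of them, against 6.48% of all genes.

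The last comparison asks whether the tissues differ in their response. None of the 33 genes was called in the interaction (the testis difference less the ovary difference), against 0.132% of all 21977 genes tested by edgeR (0.0728% higher and 0.0592% lower). None had an unadjusted p under 0.05, and DESeq2 also gave 0 calls and 0 such genes. The type VI chains had positive values, from 0.10 to 0.50, with SEs from 0.222 to 0.498. Of the other matrix genes, Itga2 was called. It stood at 21.5, 17.5, 15.3 and 16.9 CPM in CV ovaries and at 28.4, 19.9, 20.8, 27.8 and 22.6 CPM in GF ovaries, overlapping, while in the testis the GF libraries were apart below CV. The interaction was -1.08 (SE 0.204, adjusted p = 0.0474). It had the same sign in all 22 alternative settings and was called in 6 of them, with an adjusted p from 0.00136 to 0.197, and leaving out CV replicate 2, 3 or 4 or GF replicate 1, 4 or 5 of the ovary, or any testis library, ended the call.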

How the data were processed

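The authors deposited 1 table of raw read counts per gene, whole numbers in 16 columns, 1 for each library. Per the labels' protocols, ribosomal RNA was removed and a stranded kit used, with 250 ng input and 12 PCR cycles. The submitters' processing notes list STAR 2.4.0i and mm10. How reads were counted, on which annotation and whether by strand is not given in the sources used here, and reads of overlapping genes may be shared.

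Counts were tested with edgeR 4.0.16 (R 4.3.3) by the quasi-likelihood F test, with TMM scaling, filterByExpr, robust dispersions and Benjamini-Hochberg adjustment over all genes tested (threshold 0.05). Each comparison was fitted on its 2 groups and the interaction on all 16 libraries. CPM were computed from the deposited counts. Gene positions and exon lengths came from GENCODE M21 (GRCm38). Testis libraries are deeper, but all of the 33 genes except Timp2 had fewer counts per testis than per ovary on average, so their counting error is larger there. The scripts were tested on simulated data. The 33 genes, the role classes, the other matrix genes and the marker lists were chosen with earlier results of these data known.

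Values in every library are given for genes called in a GF against CV comparison and, in each role class, for the genes with the largest and smallest testis over ovary change in CV. Other matrix genes are named when called in a GF against CV comparison or when among the 2 largest changes of their family in both tissue comparisons. A gene that this rule selects is not reported here. Other genes named were chosen after their values were seen.

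Within groups, each pair of libraries was compared by chi-square, using genes with 20 or more counts. Chi-square divided by its degrees of freedom was 2.37 or more for every pair (up to 34.3), above sampling noise. The labels number the libraries within groups. Deviations of same-numbered ovaries correlated across genes at 0.418, 0.243, 0.227 and 0.410, all over the level taken to mark pairing, though no label says what a number shares, and pairs with different numbers reached 0.414 (GF5 with CV2), 0.287 (GF4 with CV3) and 0.281 (GF3 with CV2). In the testis they were -0.0278, 0.0573 and -0.0215. Alternatives were RLE scaling, total counts, no filter, DESeq2 1.42.0, a joint fit of all libraries, a replicate block, the numbered partners without the block, and each library left out.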

Additional observations from a re-analysis of the deposited data

Results flagged for a closer look

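In groups of 4 or 5 libraries, 114 sets of 1 gene in 1 group (38 genes) were examined for a library far from the others, measured by the gap to its nearest neighbour over the range of the group. Chance alone flags about 1 in 20 groups, and 9 were found. CV replicate 2 of the ovary stood above the other CV ovaries for Col5a1 (258 CPM, the next at 142), Col6a2 (520 CPM, the next at 273) and Col15a1 (157 CPM, the next at 102). GF replicate 2 of the ovary stood above the other GF ovaries for Fn1 (283 CPM, the next at 202) and Timp1 (113 CPM, the next at 21.7). CV replicate 3 of the ovary stood below the other CV ovaries for Fmod (3.78 CPM, the next at 5.71), and GF replicate 4 of the ovary above the other GF ovaries for Fbn2 (188 CPM, the next at 132). CV replicate 2 of the testis stood below the other CV testes for Col5a2 (3.46 CPM, the next at 6.31) and Col6a1 (18.5 CPM, the next at 23.4).

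For Itga2 the interaction term was called at -1.08 on the log2 scale by edgeR (adjusted p = 0.0474). It was called in only 6 of the 22 alternative settings, with the range given above.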

How the results depend on the processing

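No result changed sign past the threshold under any setting. In the ovary 0 of the 33 genes were called under every setting, while the calls over all genes moved from 32 to 95 with DESeq2, to 93 in the joint fit and to 91 with the replicate block (33 on the same libraries without it). In the testis the 2 genes called became 5 without the filter on low counts and 0 in the joint fit, which shares the spread, the filter and the scaling with the ovaries, and 1 to 6 when 1 library was left out. Calls over all testis genes moved from 1638 to 122 in the joint fit and ran from 996 to 2084 with 1 library left out, lowest without GF replicate 2. Interaction calls over all genes moved from 29 to 118 with DESeq2 and to 16 on numbered partners without the block, and ran from 13 to 37 with 1 library left out. The cause was not tested. The replicate block gave 3 called genes in the testis (Lamb2 added, as on the same libraries without the block) and changed no call of the 33 in the ovary or the interaction. In the testis, where the numbers did not pair the libraries, it gave 1692 calls over all genes, against 2084 on the same libraries without the block. The partnered libraries without the block are the same fit as leaving out CV replicate 4 in the testis and GF replicate 5 in the ovary, so 2 of the alternative settings counted in each coincide. Tissue comparisons kept 32 or 33 called genes under every setting, Vtn being the gene lost. Timp1, Vtn, Lox, Eln, Fmod, Lum and Mmp2 had under 100 counts in each testis library, and the GF testis group has 3 libraries, which limits small differences.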
